A study of Mus musculus with 4 samples.

Results

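The cells described here are dendritic cells of the mouse peritoneal cavity, picked out of droplet single-cell RNA sequencing by their transcripts of Cd209a, a lectin receptor that binds glycans on pathogens, and Flt3, the receptor for the growth factor that drives dendritic cell development. A cell barcode was a member when it had 300 or more genes, at most 10% mitochondrial molecules, no B-cell receptor contig in the library of its diet, and 2 or more UMIs (unique molecular identifiers, the counted transcript molecules) of Cd209a and Flt3 together. It also had to have 0 UMIs of Xcr1 and Clec9a, which mark type 1 conventional dendritic cells (cDC1), 0 of the T-cell genes Cd3e and Cd3d, at most 2 of the B-cell genes Cd79a and Ms4a1, and at most 2 of the macrophage genes Prg4, Alox15 and Garnl3. This gave 41 of 6684 kept barcodes in the high-fat diet (HFD) library and 87 of 13069 in the chow diet (CD) library, or 128 of 19753 in all. The levels of these 11 genes chose the members, so they are given as description only.

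Both groups were wild-type (WT) mice, placed on their diets at 4 weeks of age and kept on them for 3 months. Leukocytes were washed from the peritoneal cavity and sorted for the surface protein CD45, and each diet gave 1 expression library and 1 B-cell receptor library. The sample titles and the series design name chow for CD, although the treatment text of the labels reads as if the high-fat diet was given to both, and neither the number of mice nor any pooling is given. Each diet is a single library, so the diets cannot be tested against each other: no p-value is given, members are not replicates, and every interval below is a 95% interval that covers counting error only.

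Type 2 conventional dendritic cells (cDC2) develop from bone marrow precursors that respond to FLT3 ligand, and differ from cDC1 in relying on the transcription factor IRF4 rather than on IRF8 and BATF3. They sample antigen with lectin and Fc receptors, load peptides on MHC class II molecules and present them to CD4 T cells after moving to lymph nodes on the receptor CCR7. In the peritoneal cavity they are a minor population beside B cells and large resident macrophages.

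MHC class II transcripts were found in all members, and the promoters of 2 class II chain genes are shown because the genes of that pathway were read together below. Each sequence runs 5′ to 3′ on the strand of its gene, from 250 bases before the start of the gene to 50 bases from it, with the motif CCAAT, or ATTGG on the other strand, in capitals; CCAAT is the core of the Y box bound by NF-Y. H2-Aa encodes the alpha chain of the I-A molecule (chr17:34287774-34288073, minus strand), and H2-Eb1 the beta chain of the I-E molecule (chr17:34305617-34305916, plus strand), in RefSeq's GRCm38.p6, which is not the build mm39 named in the submitters' processing notes.
H2-Aa: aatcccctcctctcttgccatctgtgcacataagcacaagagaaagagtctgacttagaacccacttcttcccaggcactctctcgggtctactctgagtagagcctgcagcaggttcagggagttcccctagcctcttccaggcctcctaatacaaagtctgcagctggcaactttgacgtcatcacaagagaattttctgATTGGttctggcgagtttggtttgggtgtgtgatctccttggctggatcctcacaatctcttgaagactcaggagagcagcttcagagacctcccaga
H2-Eb1: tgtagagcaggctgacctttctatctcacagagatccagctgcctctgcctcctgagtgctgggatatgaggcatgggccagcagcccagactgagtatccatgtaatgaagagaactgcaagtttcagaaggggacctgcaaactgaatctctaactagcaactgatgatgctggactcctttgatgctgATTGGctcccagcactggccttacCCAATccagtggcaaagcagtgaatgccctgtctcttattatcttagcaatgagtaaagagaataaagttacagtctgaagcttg
The motif began 48 bases before the start in H2-Aa, and 59 and 35 bases before it in H2-Eb1. Of the 12 genes on the MHC class II and peptide loading list, 9 had a window in the RefSeq table, and 9 of these had CCAAT on either strand of at least 1 window. The same letters stood in 37.4% of all 32851 promoter windows of that length, which is a share of windows and not of genes. Some list genes had several windows, and H2-DMa had the motif in 1 of 2 and Marchf1 in 2 of 3. A match therefore describes the window and shows no site in use.

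Members made up 0.613% of kept barcodes in HFD (0.441 to 0.831) and 0.666% in CD (0.534 to 0.821), a difference of -0.052 points (-0.275 to 0.199), so no difference was detectable at this number of cells. Of barcodes with no receptor contig they were 1.36% in HFD and 1.46% in CD, a difference of -0.097 points (-0.588 to 0.457). All kept barcodes with 2 or more UMIs of Cd209a and Flt3, before any limit on other lineages, were 120 in HFD and 326 in CD, or 1.80% and 2.49%. That is a difference of -0.699 points (-1.10 to -0.269). Of these barcodes, 38 in HFD and 96 in CD had a receptor contig, and 14 in HFD and 97 in CD had no contig but more than 2 UMIs of Cd79a and Ms4a1. The barcodes kept out by Cd3e or Cd3d still had 914 CPM of Cd209a in HFD and 859 CPM in CD, where CPM is the count per 1000000 UMIs of the summed barcodes. Those kept out by macrophage genes had less, at 352 CPM in HFD and 232 CPM in CD. No doublet caller was run, and the lineage limits take out only part of the barcodes of mixed content. Cd79a and Ms4a1 were at 0 UMIs in 24 of 41 HFD and 42 of 87 CD members. Prg4, Alox15 and Garnl3 were at 0 in 23 HFD and 66 CD members. Shares of CD45-sorted cells say nothing of cell numbers.

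The members were sequenced more deeply in HFD, with a median of 9111 UMIs (3082 to 23324) and 2786 genes per barcode, than in CD, with 4818 UMIs (2075 to 18967) and 1737 genes. Their summed UMIs were 446204 in HFD and 580084 in CD. The median mitochondrial share was 1.70% in HFD and 1.53% in CD. Barcodes found in both libraries numbered 30, of which 0 were HFD members and 1 was a CD member. At the threshold itself, 3 HFD and 15 CD members had exactly 2 UMIs of Cd209a and Flt3, while 5 HFD and 22 CD barcodes past all other limits had 1 UMI and stayed out. The median over members was 12 UMIs in HFD and 7 in CD.

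The label was checked on genes the rule did not use. H2-Aa and Cd74, the invariant chain that guides class II molecules to the peptide loading compartment, had a UMI in all 41 HFD and all 87 CD members. Per 10000 UMIs, H2-Aa was lowest at 1.19, median 154 and highest at 244 in HFD, and lowest at 78.5, median 180 and highest at 327 in CD. Except for 2 HFD members near 0, described below, the range of HFD members lay within that of CD. Itgax, which encodes the integrin CD11c, was at 184 CPM in HFD and 172 CPM in CD, with a UMI in 26 of 41 and 49 of 87 members. Zbtb46, a transcription factor of conventional dendritic cells, was at 87.4 CPM in HFD and 72.4 CPM in CD. Irf4 did not set HFD members apart, at 38.1 CPM against 39.4 CPM in cDC1 and 68.8 CPM in Csf1r-positive phagocytes. In CD it was at 105 CPM in members, 74.2 CPM in cDC1 and 64.4 CPM in Csf1r-positive phagocytes. Clec10a and Mgl2, lectins that bind galactose sugars, were at 509 and 699 CPM in HFD and at 779 and 476 CPM in CD. Of 16 cDC2 markers, 14 had a UMI in at least 10% of members in each library. That list includes Cd209a and Flt3, whose detection the rule itself set. Itgax was sparse in large macrophages, at 1.09 CPM in HFD and 1.33 CPM in CD, but at 98.5 and 68.0 CPM in cDC1. H2-Aa was not particular to the members, with a UMI in 99.8% of HFD and 99.96% of CD B barcodes and in every cDC1. The 16 cDC2 markers summed to 70461 CPM in HFD and 79332 CPM in CD members. In cDC1 they summed to 68889 CPM in HFD and 71800 CPM in CD. Most of the member sums was Cd74 (51432 CPM in HFD, 57752 CPM in CD) and H2-Aa (15125 CPM in HFD, 17344 CPM in CD). The sums therefore say little of the other markers on the list.

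Markers of other cell types differed in level. Irf8, the factor on which cDC1 depend, was at 49.3 CPM in HFD and 12.1 CPM in CD members, against 1208 CPM in HFD and 1100 CPM in CD cDC1. It had a UMI in 6 of 41 HFD members, and the 2 HFD members of low H2-Aa described below held 9 and 2 of its UMIs. Without the first of these, Irf8 was at 30.3 CPM in HFD. Batf3, also known from cDC1, was at 238 CPM in HFD and 286 CPM in CD members, and at 223 CPM in HFD and 272 CPM in CD cDC1. The 11 monocyte markers summed to 3433 CPM in HFD and 2774 CPM in CD members, above cDC1 (1753 CPM in HFD, 1910 CPM in CD) and below Csf1r-positive phagocytes (15663 CPM in HFD, 22727 CPM in CD). Most of that sum was Lyz2, with a UMI in 40 of 41 HFD and 85 of 87 CD members, while Ly6c2 was at 0 in CD. Without the Ly6c2-positive HFD member described below, Lyz2 was at 2375 CPM in HFD, against 2353 CPM in CD. The 14 markers of mature dendritic cells summed to 1553 CPM in HFD and 407 CPM in CD members, and per 10000 UMIs the highest HFD member, described below, was at 329 where the median was 2.68. Of 8 plasmacytoid dendritic cell markers, 4 had a UMI in at least 10% of members in each library, among them Tcf4, a transcription factor that B cells express too, at 91.9 CPM in HFD and 87.9 CPM in CD. Siglech, a surface lectin of plasmacytoid cells, was at 0 UMIs in both libraries, as were all 6 neutrophil and all 5 mesothelial markers. Of 8 T-cell markers, 6 were at 0 in HFD and 5 in CD. All 10 B-cell markers had a UMI in both libraries, with a summed level of 258 CPM in HFD and 422 CPM in CD members, and of 12 large macrophage markers, 12 in HFD and 9 in CD had one, at 363 CPM and 255 CPM. For scale, Cd209a, a gene that B cells lack, had a UMI in 0.819% of B barcodes in HFD (median 5997 UMIs) and 1.92% in CD (median 4654.5 UMIs), and in 2.53% of large macrophages in HFD (median 13311 UMIs) and 6.11% in CD (median 4721 UMIs). In the members it had a UMI in 35 of 41 in HFD and 76 of 87 in CD.

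**Figure D1:**
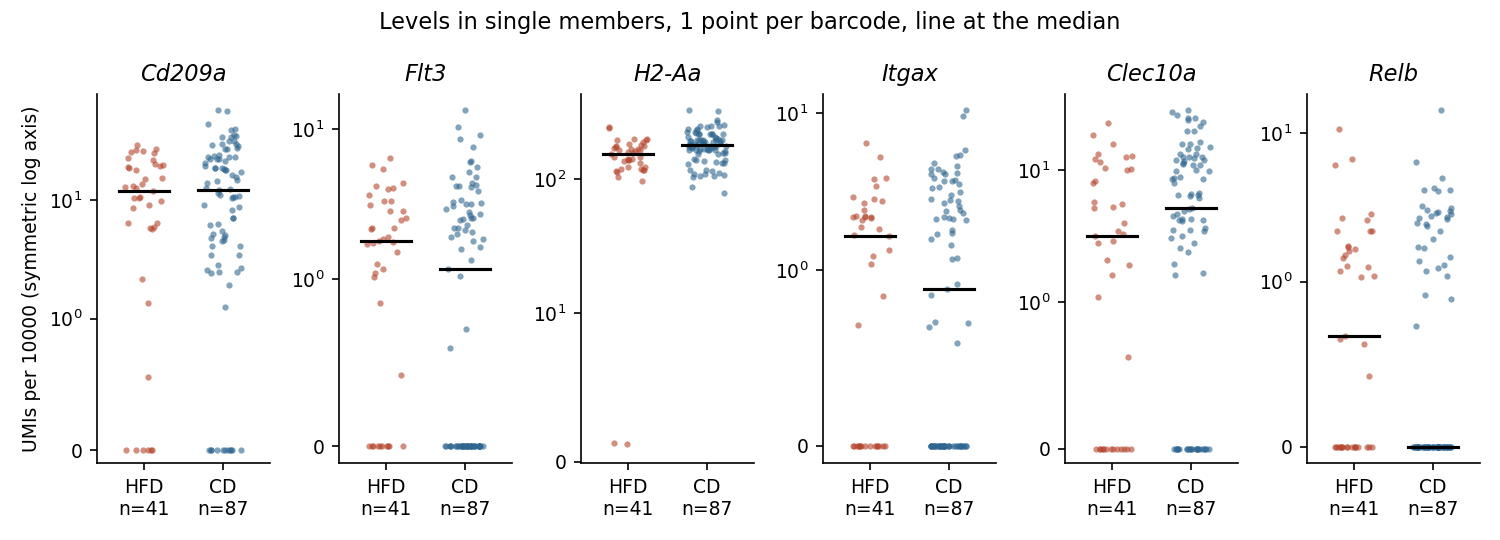
UMIs per 10000 in each member for 6 genes on a symmetric log axis, HFD (41 members) left and CD (87 members) right, with a line at the median. The median of H2-Aa is 154 in HFD and 180 in CD, and 2 HFD members stand apart near 1.

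The 2 HFD members that stand apart have 1.19 and 1.28 UMIs of H2-Aa per 10000, where every other member of either library has 78.5 or more. The first, of 16849 UMIs, held all 62 Ccr7 UMIs of the HFD members, 80 of their 85 UMIs of Fscn1, the actin bundler of mature dendritic cell protrusions, and 315 of their 333 UMIs of Ccl5, a chemokine that draws T cells. It had 3 UMIs of Flt3 and 0 of Cd209a. The second, of 7834 UMIs, had 282 UMIs of the lysozyme gene Lyz2, 15 of Csf1r, the receptor of macrophage growth factor, and 8 of Ly6c2, a marker of classical monocytes. It had 2 UMIs of Flt3 and 0 of Cd209a. Their profiles go against the label, so several results that rest on them are given with and without them. That choice was made after the values were seen. In CD, 1 member held 97 of the 130 UMIs of Retnla, a secreted protein of alternatively activated macrophages.

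Compared with 5 other classes of barcodes in the same libraries (B, T, large macrophage, cDC1 and Csf1r-positive phagocytes, each set by its own marker UMIs), the members were compared gene by gene. Of 1028 genes at 100 CPM or more in the members of both libraries, 87 were above all 5 classes in both, and 3 were at least 2-fold above. Without cDC1, of which there were 12 barcodes in HFD and 17 in CD, 33 genes were at least 2-fold above the other 4 classes. The cDC1 class, set by Xcr1 and Clec9a, also held Cd209a, with a UMI in 3 of 12 barcodes in HFD (735 CPM) and in 6 of 17 in CD (1348 CPM, against 1403 CPM in members). These are descriptions, since the rule chose the cells.

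The 3 genes were Relb, Marveld1 and Clec10a. Relb, an NF-kB subunit needed for dendritic cell maturation, was at 155 CPM in HFD members and 109 CPM in CD members, against at most 59.1 CPM in HFD and 46.0 CPM in CD in the other classes. The Ccr7-positive member of HFD held 18 of the 69 Relb UMIs of that library, and the gene had a UMI in 24 of 41 HFD and 34 of 87 CD members. Marveld1, a four-span membrane protein, was at 108 CPM in HFD and 105 CPM in CD members. Clec10a was at 190.4 CPM in HFD and 389 CPM in CD cDC1, the next highest class, with a UMI in 3 of 12 and 6 of 17 barcodes, against the member levels given above. Large macrophages had Clec10a too, with a UMI in 50.7% of barcodes in HFD and 22.9% in CD, but at 82.1 CPM and 53.1 CPM.

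Antigen processing and surface receptors followed among the 15 genes with the greatest excess over other classes. Ifi30, the lysosomal reductase that unfolds antigens for class II loading, was found in every member, at 2427 CPM in HFD and 2293 CPM in CD, and at 1359 CPM and 1298 CPM in cDC1. Itgax, given above, was 1.87-fold above cDC1 in HFD and 2.54-fold in CD. Klrd1, the CD94 receptor subunit best known from natural killer cells, was at 314 CPM in HFD and 357 CPM in CD members, with a UMI in 33 of 41 and 66 of 87. The natural killer marker Ncr1 was at 0 in the members of both libraries. Klrd1 was at 158 CPM in HFD and 204 CPM in CD cDC1, the next highest class, and T barcodes had 131 CPM in HFD and 142 CPM in CD. Ltb4r1, the receptor for leukotriene B4, was at 356 CPM in HFD and 328 CPM in CD members. In cDC1 it was at 204 CPM in HFD and 192 CPM in CD, and in Csf1r-positive phagocytes at 211 CPM and 135 CPM. The list was completed by Ms4a6c and Tmem176a, membrane proteins, by Ikbkb, Nfkb1 and Traf1 of the NF-kB pathway, by the cytokine Il1b (166 CPM in HFD, 165 CPM in CD), by the actin-severing protein Gsn and by Rogdi.

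**Figure D2:**
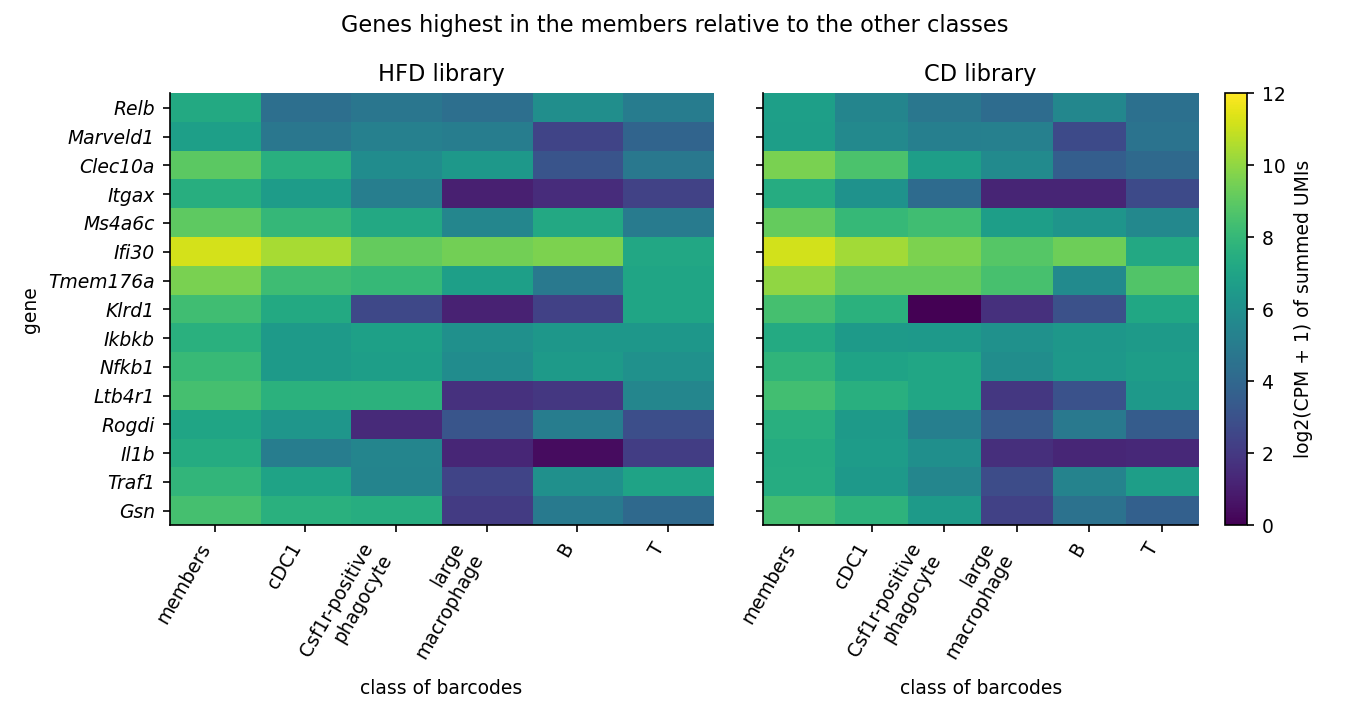
Levels, as log2 of CPM plus 1, of the 15 genes with the greatest excess over all 5 other classes, one row per gene and one column per class, HFD library left and CD library right. The members' column is the brightest in each row, with cDC1 or Csf1r-positive phagocytes next in most rows.

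The members were not uniform. Clec10a and Mgl2 together reached 2 or more UMIs in 28 of 41 HFD members (68.3%; 51.9 to 81.9) and 65 of 87 CD members (74.7%; 64.3 to 83.4). After each barcode was thinned to 2000 UMIs these shares were 46.3% in HFD and 57.5% in CD. The limit is one set on a UMI count, and 2 HFD and 5 CD members were 1 UMI below it. Members on both sides of the limit were compared within each library, without the 2 H2-Aa-low members, as 28 positive and 11 negative in HFD and 65 positive and 22 negative in CD. Of 2591 genes, 40 (1.54%) were higher in the positive members and 43 (1.66%) lower, by at least 1 log2 unit with an interval clear of 0 in both libraries. The genes named here were chosen from these after their values were seen.

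Ccr2 and Lyz2 were among the genes higher in positive members. Ccr2, the receptor that draws monocytes and their kin into tissue, was at 649 CPM in positive and 28.8 CPM in negative HFD members, and at 633 CPM in positive and 213 CPM in negative CD members. Lyz2 was at 3110 CPM in positive and 422 CPM in negative HFD members, and at 2763 CPM in positive and 1127 CPM in negative CD members. Il1b was at 230 CPM in positive and 0 in negative HFD members, and at 198 CPM in positive and 68.7 CPM in negative CD members. Of the Il1b UMIs in the members compared, 73 in HFD and 86 in CD came from positive members, and 0 in HFD and 10 in CD from negative members. Few members carried the HFD count: 1 member held 27 of the 74 Il1b UMIs of all HFD members. Il1b had a UMI in 14 of 41 HFD and 39 of 87 CD members. The chemokine Ccl6 was at 1689 CPM in positive and 154 CPM in negative HFD members, and at 1795 CPM in positive and 461 CPM in negative CD members. Pltp, which transfers phospholipids between lipoproteins, was at 1292 CPM in positive and 48.0 CPM in negative HFD members, and at 594 CPM in positive and 220 CPM in negative CD members. Mrc1, the mannose receptor, Cd209c, a relative of Cd209a, Ltb4r1, Cysltr1, a leukotriene receptor, and Tbxas1, thromboxane synthase, were higher on this side as well.

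Hmgb2 and Cd7 were among the genes lower in positive members. Hmgb2, a chromatin protein of dividing and immature cells, was at 94.5 CPM in positive and 394 CPM in negative HFD members, and at 62.1 CPM in positive and 557 CPM in negative CD members. Pcna, the replication clamp, was at 69.3 CPM in positive and 240.1 CPM in negative HFD members, and at 69.0 CPM in positive and 158 CPM in negative CD members. Cd7, an immunoglobulin-like surface protein, was at 69.3 CPM in positive and 557 CPM in negative HFD members, and at 57.5 CPM in positive and 206 CPM in negative CD members. Ltb, a lymphotoxin subunit, Pglyrp1, a peptidoglycan-binding protein, Plac8, Adam23, Gpr183, the oxysterol receptor that positions cDC2 in lymphoid tissue, and Icosl, a costimulatory ligand, were lower in positive members too. Flt3, a gene of the rule, was at 104 CPM in positive and 365 CPM in negative HFD members (log2 ratio -1.81; -2.53 to -1.10). In CD it was at 173 CPM in positive and 254 CPM in negative members, with an interval that spans 0 (-0.56; -1.15 to 0.05). Cd209a ran the other way, at 1682 and 307 CPM in HFD and at 1760 and 337 CPM in CD. Since the rule sums both genes, a member low in Cd209a enters through Flt3, so opposite levels are partly built in. H2-Aa was high on both sides, at 16775 CPM in positive and 13654 CPM in negative HFD members, and at 18304 CPM in positive and 14476 CPM in negative CD members. Irf4 had log2 ratios of 0.09 (-1.60 to 2.17) in HFD and 0.04 (-0.83 to 0.99) in CD across the split, at 41.0 CPM in positive and 38.4 CPM in negative HFD members, and at 106 CPM in positive and 103 CPM in negative CD members.

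**Figure D3:**
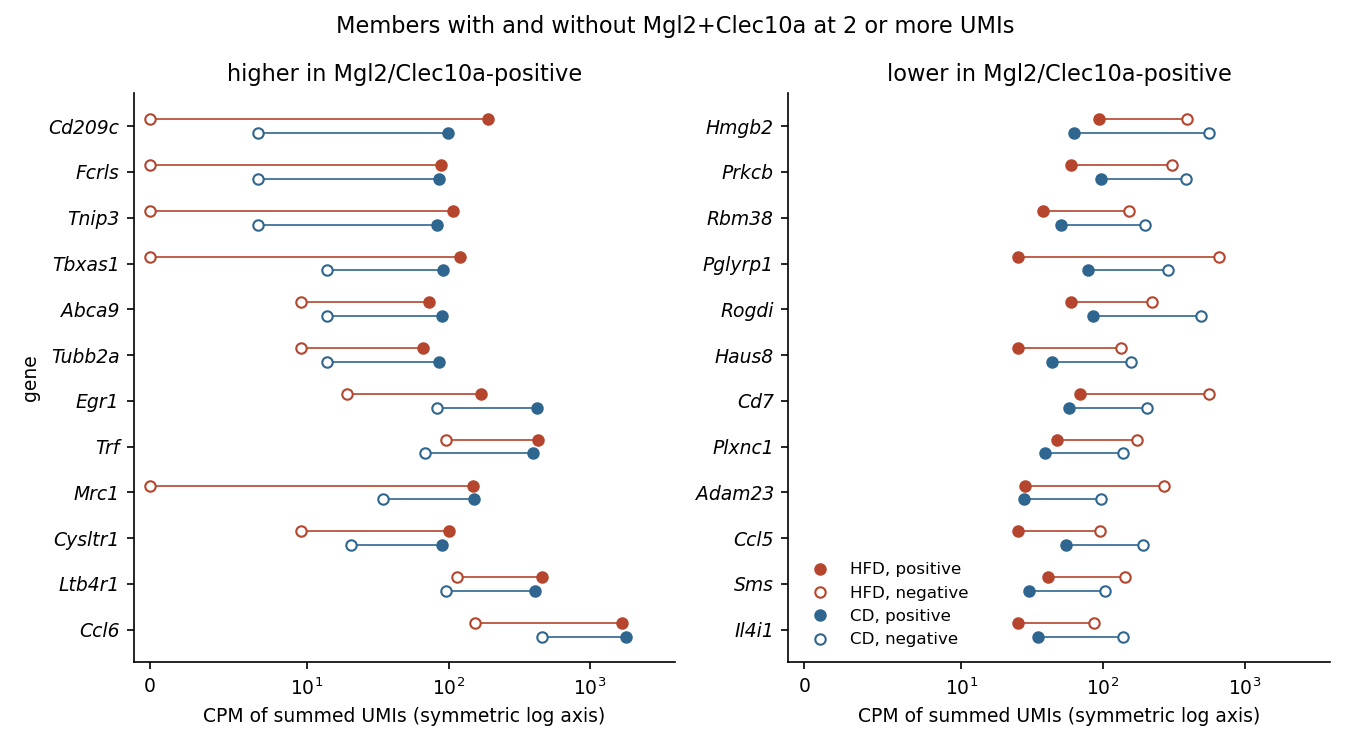
Summed CPM, on a symmetric log axis, of the first 12 genes on each side of the split, with filled points for members with 2 or more UMIs of Clec10a and Mgl2 and open points for the other members, red for HFD and blue for CD. Pglyrp1 and Hmgb2 lie right in the negative members of both libraries, and Ccl6 and Trf in the positive ones.

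Subsets by the rule's own genes and by state were small. Members with Cd209a and no Flt3 were 10 of 41 in HFD (24.4%) and 40 of 87 in CD (46.0%), and those with both were 25 in HFD and 36 in CD. Since HFD members were deeper, these shares were also read at 2000 UMIs, where members with both were 12 in HFD and 19 in CD. Those with Flt3 and no Cd209a were 6 in HFD, among them both H2-Aa-low members, and 11 in CD. The 11 in CD had 543.6 CPM of Stmn1, a microtubule regulator of dividing cells, but 32 of the 52 Stmn1 UMIs of CD members came from 1 member. They had 44.4 CPM of Clec10a. Members with 2 or more UMIs of 5 proliferation genes were 1 in HFD and 3 in CD, those with 2 or more of Ccr7, Fscn1 and Ccl22 were 2 in HFD and 3 in CD, and those with 3 or more of the complement C1q genes were 1 in each library.

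Between diets, 2668 genes with 50 or more UMIs over both member sums were compared as HFD over CD. The median log2 ratio was 0.057, and 56.6% of genes were above 0. By at least 1 log2 unit with an interval clear of 0, 48 genes (1.8%) were higher in HFD and 29 (1.09%) lower. Setting the median ratio to 0 moved this split to 38 higher and 39 lower, so the balance of directions rests on the scaling. Leaving out, gene by gene, the member with most UMIs in each library kept 31 of the 48 and 28 of the 29. Of the 48, 6 took at least 50% of their HFD UMIs from 1 member. Of the 24 genes that met the rule for naming, 23 are given below, and of them Fscn1 rests on the Ccr7-positive member described above: its 85 UMIs in HFD against 6 in CD gave a log2 ratio of 4.20, and 0.20 without the 2 H2-Aa-low members.

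Trib1 and Id2 were among the genes higher in HFD. Trib1, a pseudokinase that directs degradation of C/EBP transcription factors, was at 128 CPM in HFD and 39.6 CPM in CD, a log2 ratio of 1.69 (0.97 to 2.45). Its ratios in B, T and large macrophage barcodes were 0.05, -0.10 and -0.08, that in Csf1r-positive phagocytes was -0.47 and that in cDC1 was -1.68 (-3.47 to -0.18). Id2, the inhibitor of E proteins required for dendritic cell development, was at 199 CPM in HFD (17 of 41 members) and 67.2 CPM in CD (25 of 87), a log2 ratio of 1.57 (1.01 to 2.15). Per 10000 UMIs, Id2 was at 10.5 in its highest HFD member and at 8.38 in its highest CD member, with a median of 0 in both, so the groups overlap. The ratio of Id2 depended on the setting, at 0.38 with barcodes thinned to 2000 UMIs, 0.85 with equal weight per member and 2.76 with all lineage limits at 0. It was above 0 in cDC1 (2.04; 1.52 to 2.59), Csf1r-positive phagocytes (1.2; 0.84 to 1.57) and large macrophages (0.42), and below 0 in B (-0.21) and T barcodes (-0.75).

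Others higher in HFD were Cdkn1a, the cell cycle inhibitor p21, with a log2 ratio of 1.46 (0.87 to 2.07), and Samsn1, a signalling adaptor, with 2.02 (1.21 to 2.90). Rabgap1l, a Rab regulator, had 1.75 (0.95 to 2.59). The Ccr7-positive H2-Aa-low member held 19 of the 53 Samsn1 UMIs and 22 of the 49 Rabgap1l UMIs of HFD. Without the top member of each library, Samsn1 had 1.68 (0.74 to 2.69) and Rabgap1l 1.18 (0.23 to 2.17). Once barcodes were thinned to 2000 UMIs, Samsn1 had -0.25 and Rabgap1l -0.34. Crip2, a LIM domain protein, had a ratio of 1.67 (1.03 to 2.35) in the members, 2.01 in cDC1, 4.15 in Csf1r-positive phagocytes, 1.09 in B, 0.51 in T and -0.19 in large macrophage barcodes. The rest were Gm57204, Upb1, which degrades pyrimidines, Mcm3, a subunit of the replicative helicase, and Tex14, with ratios of 1.42 to 1.78. Apart from Fscn1, each kept a ratio of 1 or more without its top member. Over the other settings their lowest ratios were smaller, at 0.74 for Cdkn1a, 0.57 for Tex14, 0.45 for Mcm3, 0.42 for Gm57204 and 0.07 for Upb1.

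Irf4, the factor cDC2 rely on, was among the genes lower in HFD. It was at 38.1 CPM in HFD (17 UMIs, in 12 of 41 members) and 105 CPM in CD (61 UMIs, in 37 of 87 members), and its highest member was at 2.84 per 10000 UMIs in HFD and about 6.0 in CD, with a median of 0 in both. The log2 ratio was -1.46 (-2.33 to -0.67), and -1.80 to -1.16 over the alternative settings, below 0 in all of them. It was also below 0 in B barcodes (-0.45), T barcodes (-1.11) and large macrophages (-0.62), below 0 with an interval that spans it in cDC1 (-0.91; -2.61 to 0.61), and above 0 in Csf1r-positive phagocytes (0.09). Ear2, an eosinophil-associated ribonuclease that some mononuclear phagocytes express, had 3 UMIs in 3 of 41 HFD members and 55 UMIs in 19 of 87 CD members. Its ratio was -3.82 (-6.14 to -2.20), and -1.01 with all lineage limits at 0.

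The immediate early list had a median of 0.05, with 12 of 22 genes above 0, and 2 of its genes are among the 12 named as lower. Egr1, a transcription factor induced within minutes of stimulation, was at 130.0 CPM in HFD and 338 CPM in CD, with a log2 ratio of -1.38 (-1.83 to -0.95), and of -0.54 with all lineage limits at 0. Its ratios in B, T and large macrophage barcodes were 0.27, 0.11 and 0.71, that in Csf1r-positive phagocytes was 0.53, and that in cDC1 was -0.38 (-1.02 to 0.24). Atf3, a stress-induced factor, had a ratio of -1.22 (-1.86 to -0.62), and of -0.33 once barcodes were thinned. Tsc22d3, the glucocorticoid-induced leucine zipper, was at 71.7 CPM in HFD and 193 CPM in CD, a ratio of -1.43 (-2.04 to -0.85), and the chaperone Dnajb1 had a ratio of -1.81 (-3.04 to -0.75). Both were also lower in the B, T and large macrophage barcodes of the HFD library, with ratios of -0.62 to -0.90 for Tsc22d3 and of -0.83 to -0.94 for Dnajb1. In cDC1 the ratios were -0.78 for Tsc22d3 and -3.82 for Dnajb1, and in Csf1r-positive phagocytes -1.33 and -0.58. Rsrp1, a splicing-related protein, was lower in every class, with -1.38 in the members and -1.21, -1.11 and -1.59 in B, T and large macrophage barcodes. Cebpd, Rgs18, Gng2, Polr2g and Mthfs completed the 12, with ratios of -1.43 to -1.18, and over the settings Cebpd reached -0.37 and Mthfs -0.60.

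**Figure D4:**
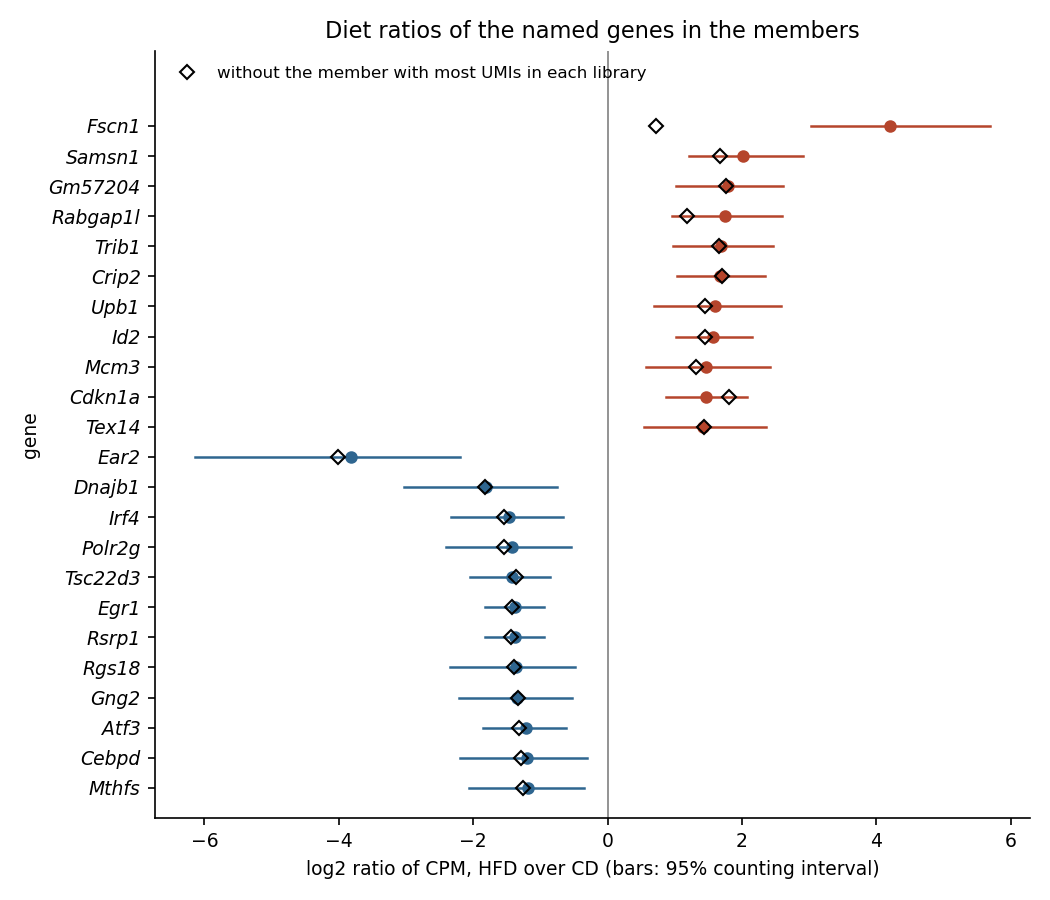
Log2 ratios of CPM, HFD over CD, for 23 named genes, with 95% counting intervals as bars and open diamonds for the ratio without the member with most UMIs in each library. The diamond of Fscn1, at 0.72, lies farthest from its point, at 4.20.

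Gene lists were read by the median log2 ratio over their genes with 20 or more UMIs, beside 0.057 over all genes compared, without a test. The MHC class II and peptide loading list was slightly lower in HFD, with a median of -0.16 and 11 of 12 genes below 0. None of the 12 was lower by 1 log2 unit with an interval clear of 0. H2-Aa, whose promoter is shown above, was at 15125 CPM in HFD and 17344 CPM in CD, a ratio of -0.20 (-0.24 to -0.15). H2-Eb1 was at 12642 CPM in HFD and 13650 CPM in CD, a ratio of -0.11 (-0.16 to -0.06), and Cd74 had a ratio of -0.17 (-0.19 to -0.14). H2-DMa, a subunit of the peptide exchanger H2-DM, had -0.35 (-0.54 to -0.16), while Ciita, the master regulator of the pathway, was at 184 CPM in HFD and 205 CPM in CD, a ratio of -0.16 (-0.58 to 0.26). Without the 2 H2-Aa-low members the median was -0.08. They held 2 and 1 UMIs of H2-Eb1 in 16849 and 7834 UMIs. The ratios of H2-Aa, H2-Eb1 and Cd74 above include them, and so lie further below 0 than without them. Without the Ccr7-positive one, HFD had 15714 CPM of H2-Aa and 53236 CPM of Cd74, against 57752 CPM of Cd74 in CD. Leaving out the other instead gave 15393 and 52337 CPM in HFD. Intervals of these genes without both are not given. In large macrophages of the same libraries the median of this list was -1.31, in Csf1r-positive phagocytes -0.61, in T barcodes -0.26, in cDC1 -0.10 and in B barcodes 0.10.

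Lectin and endocytic receptors had a median of -0.45, with 10 of 13 genes below 0, but the median changed sign over the settings (-0.61 to 0.16) and was below 0 in all 5 other classes (-0.62 to -0.25). Clec4a3, an inhibitory lectin of myeloid cells, was at 103 CPM in HFD and 202 CPM in CD, a ratio of -0.97 (-1.49 to -0.46). Clec10a had -0.62 (-0.85 to -0.38) and Mgl2 0.56 (0.32 to 0.79), so these related lectins differed in sign. Mgl2 had a UMI in 17 of 41 HFD and 31 of 87 CD members, and the highest member held 29.2% of its UMIs in HFD. Sirpa, the inhibitory receptor that binds CD47, had -0.88 (-1.38 to -0.40).

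Lipid handling genes had the greatest median of the lists, 0.52, with 10 of 12 genes above 0. Pltp was at 932 CPM in HFD and 499.9 CPM in CD, a ratio of 0.90 (0.68 to 1.12), against ratios of -1.87 to -0.35 in the 5 other classes. Plin2, the coat protein of lipid droplets, was at 179 CPM in HFD and 114 CPM in CD, a ratio of 0.66 (0.17 to 1.15). Lrp1, a lipoprotein and scavenger receptor, had 0.71 (0.17 to 1.24). Fabp5, a fatty acid binding protein, had 0.79 (0.14 to 1.46), but 64.6% of its UMIs in HFD came from 1 member and the ratio was -0.37 without the top member of each library. Apoe, the apolipoprotein of remnant particles, was below 0, at -0.94 (-1.69 to -0.24). It was scarce in members (53.8 CPM in HFD, 103 CPM in CD) beside B barcodes (282 CPM in HFD, 1039 CPM in CD) and large macrophages (3609 CPM in HFD, 16970 CPM in CD), so it did not meet the level set for named genes, and its ratios there were -1.88 and -2.23. Lpl, the lipoprotein lipase, had 9 UMIs in HFD and 26 in CD, a ratio of -1.15 (-2.43 to -0.01). The list's median was 0.13 without the 2 H2-Aa-low members and stood between 0.13 and 0.65 over the settings. In B, T and large macrophage barcodes it was -0.00, -0.14 and -0.04, in Csf1r-positive phagocytes -0.01, and in cDC1, on 5 genes, -0.04.

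Actin and motility genes had a median of 0.30, with 19 of 25 genes above 0 and a range of 0.20 to 0.30 over the settings, against medians of 0.03 to 0.17 in the other classes. Actb, the main non-muscle actin, was at 10789 CPM in HFD and 8085 CPM in CD, a ratio of 0.42 (0.36 to 0.47), and per 10000 UMIs its members had a lowest, median and highest value of 48.7, 99.7 and 182 in HFD and of 33.4, 78.6 and 208 in CD. Vim, the intermediate filament protein, had 0.36 (0.25 to 0.47). Transcription factors of dendritic cells had a median of 0.27, with 19 of 23 genes above 0, and of 0.18 without the 2 H2-Aa-low members. Besides Id2 and Irf4, Bcl6, a repressor, had 0.99 (0.37 to 1.62) and Bhlhe40 0.78 (0.23 to 1.34), whereas Zbtb46 had 0.27 (-0.40 to 0.94). Of the migration receptors, Gpr132, which responds to lactate and oxidized lipids, was at 190.5 CPM in HFD and 82.7 CPM in CD, a ratio of 1.2 (0.68 to 1.74), and Ccr2, the most spread of them, -0.10 (-0.36 to 0.15).

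Chaperones of the endoplasmic reticulum had a median of -0.35, with 15 of 17 genes below 0 and a range of -0.43 to -0.26 over the settings. Herpud1, part of the system that degrades misfolded proteins, was at 98.6 CPM in HFD and 178 CPM in CD, a ratio of -0.85 (-1.39 to -0.33), and Hspa5, the chaperone BiP, had -0.44 (-0.75 to -0.13). None of this list passed 1 log2 unit. The median of the same list was -0.27 in B barcodes, -0.23 in T barcodes, -0.29 in Csf1r-positive phagocytes and -0.03 in large macrophages. In cDC1 it was 0.38, with 11 of 13 genes above 0. Cytosolic ribosomal protein genes had a median of -0.21, with 21 of 25 below 0. Costimulation genes had a median of 0.19, and of -0.04 without the 2 H2-Aa-low members. Cd40, the receptor for T-cell help, was at 58.3 CPM in HFD and 27.6 CPM in CD (1.08; 0.13 to 2.08). Cd83, a surface protein of mature dendritic cells, was at 157 CPM in HFD and 133 CPM in CD (0.24; -0.25 to 0.73). Without the Ccr7-positive H2-Aa-low member, HFD had 48.9 CPM of Cd40 and 126 CPM of Cd83. Leaving out the other H2-Aa-low member instead gave 54.7 CPM of Cd40 and 160 CPM of Cd83 in HFD.

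**Figure D5:**
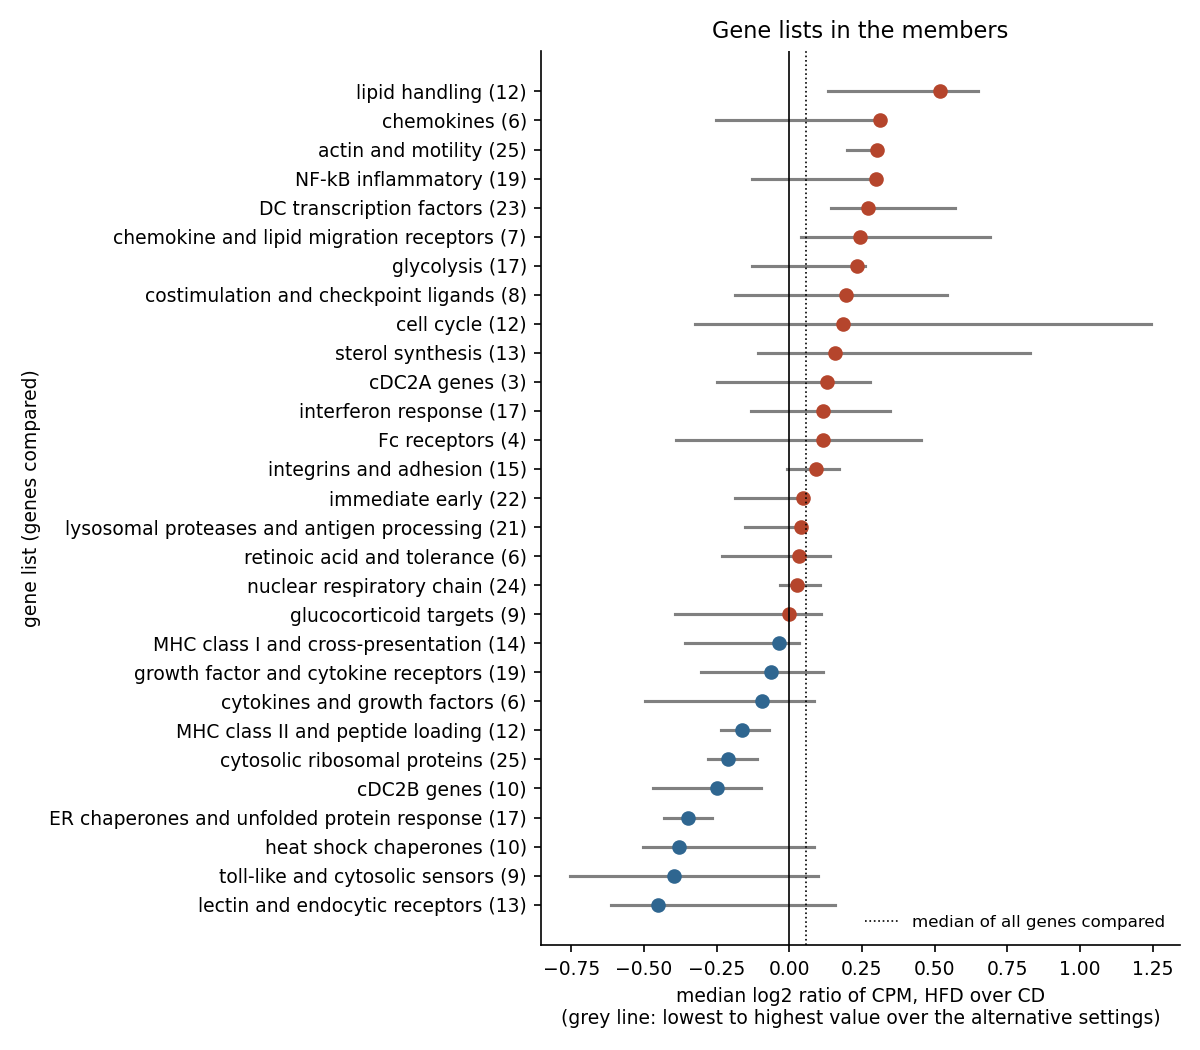
Median log2 ratio, HFD over CD, of each gene list in the members, with a grey line from the lowest to the highest value over the alternative settings and a dotted line at the median of all genes compared, 0.057. Lipid handling lies highest at 0.52 and lectins lowest at -0.45, and many grey lines cross 0.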

How the data were processed

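The deposited expression matrices hold raw counts (UMIs of each gene in each barcode) that the authors did not normalize, and come from Cell Ranger 8.0.1 per the file headers. Per the submitters' processing notes the tools were Seurat 4.3.0 and another Cell Ranger version, 6.0.1, with build mm39; the cell calling is not given in the sources used here. The deposited receptor tables, with counts of UMIs per contig, were used only for the barcodes they list. UMIs of members were summed per library and scaled to CPM, and log2 ratios carry exact conditional intervals of a ratio of Poisson counts; shares carry Clopper-Pearson intervals and differences Newcombe intervals. Receptor, mitochondrial and ribosomal protein genes and the 11 genes of the rule were left out of the diet comparison. Named genes had 50 CPM or more in the higher library, a UMI in at least 10% of its members and no less than 25% of the CPM that the gene had in each of the B, T and large macrophage classes; the 12 highest and 12 lowest ratios of those called were taken, and 1 of these 24 is not reported here. Python 3.11.15, numpy 2.4.6, scipy 1.17.1 and pandas 2.3.3 were used, and the intervals were tested on simulated data. Members and gene lists were chosen with earlier results of these data known. Alternatives changed the barcode filter, the rule, the depth, the scaling, the weight of members, the background of other barcodes and the minimum of UMIs.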

Additional observations from a re-analysis of the deposited data

How the results depend on the processing

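No paired analysis was possible because each diet has 1 library. Of 655 values recomputed over 15 settings, 59 moved beyond the interval or spread of the reported value and 4 changed sign after having been called; the causes were not tested unless stated. With 1 or more UMI of each of Cd209a and Flt3, 25 genes were higher and 11 lower in HFD. With all lineage limits at 0, which left 13 HFD and 31 CD members, there were 16 and 18, and with barcodes thinned to 2000 UMIs 4 and 7, on fewer UMIs. Genes with 20 or more UMIs gave 159 higher and 88 lower, and genes with 1 or more UMI in each sum 220 and 129, on more genes. Leaving out the member with most UMIs of each gene gave 37 higher and 46 lower. The median of all genes was 0.068 with Cd209a and Flt3 at 3 or more, 0.021 with lineage limits at 0, 0.029 thinned, 0.070 with equal weight per member and 0.077 in members with 2 or more UMIs of Mgl2 and Clec10a; it is 0 by construction under the median scaling. Fscn1 had -0.51 thinned and -1.13 in Mgl2 and Clec10a positive members, Samsn1 -0.25 and Rabgap1l -0.34 thinned. The other 283 of 287 values of the 24 named genes kept their side of 0, and of 308 values of the other 28 lists 50 changed sign. The share difference ranged from -0.0829 to 0.0986 points and was above 0 at 3 or more UMIs (0.0176) and with both genes (0.0986). The settings without the H2-Aa-low members, without the top member of a gene and with Mgl2 and Clec10a positive members alone were chosen after seeing the data. Depth limits the rest: a gene compared needed 50 UMIs in 128 cells, and the median interval was 1.26 log2 units wide.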

Other observations

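Some genes called between diets did not meet the rule for naming, and for several of them 1 member held most of the UMIs. Clu, a secreted chaperone, had 57 UMIs in HFD members, all from 1 member, and 0 in CD members. The 62 UMIs of Ccr7 in HFD were likewise from 1 member, and the 11 in CD came from 11 of 87 members. Ccl5 had a log2 ratio of 3.06, and -0.93 without the top member of each library. Stmn1 had 8 UMIs in HFD and 52 in CD, of which 1 CD member held 61.5%, and its ratio of -2.32 was -1.60 (-3.37 to -0.14) without the top members. Retnla had 3 UMIs in HFD and 130 in CD, and its ratio of -5.06 was -3.67 (-6.78 to -1.70) without them.

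Of the cytokine list, Tgfb1 had 109 UMIs in HFD and 162 in CD, a log2 ratio of -0.19 (-0.56 to 0.17), and Ltb had 42 and 69, a ratio of -0.34 (-0.93 to 0.24). Il18 had 23 UMIs in 13 of 41 HFD members and 9 UMIs in 8 of 87 CD members, a log2 ratio of 1.73 (0.57 to 3.03). Il1r2, the decoy receptor of interleukin 1, had 22 UMIs in 5 of 41 HFD members and 2 UMIs in 2 of 87 CD members, and Etv3, a repressor, had 40 UMIs in 12 of 41 HFD and 7 UMIs in 6 of 87 CD members. These 3 genes were chosen after their values were seen. Among immediate early genes Nr4a1 was above 0 where Egr1, Atf3, Fos and Jun were below, with a ratio of 1.10 (0.56 to 1.66) in the members, and it was above 0 in B, T and large macrophage barcodes as well, at 0.64, 1.28 and 1.26, in cDC1 at 0.82 and in Csf1r-positive phagocytes at 0.91.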
